A study of Homo sapiens with 9 samples.

Results

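CDKN2A, CDKN2B and MTAP are neighbouring genes on the short arm of chromosome 9, in band 9p21. They were examined here in B6TC, a breast cancer line that the sample labels describe as a fusion of MDA-MB-231 with ZR-75-1 cells, and in both of these parental lines. Every probe set assigned to 1 of the 3 gene symbols was taken as a member, which gave 11 of the 54613 probe sets without controls. CDKN2A had 3 probe sets, CDKN2B had 2 and MTAP had 6. Within these genes no probe set was chosen by its level. The 3 genes and the gene lists used below were chosen with earlier results of these data known. The question put to these genes was which parental genome the hybrid line expresses at a locus that cancer lines often lose.

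CDKN2A encodes a pair of unrelated tumor suppressors through alternative first exons. The p16INK4a protein blocks the cyclin D kinases CDK4 and CDK6 and so keeps RB in its growth-restraining form, whereas ARF binds and inhibits MDM2. CDKN2B encodes p15INK4b, another inhibitor of CDK4 and CDK6, whose transcript is induced by TGF-β in epithelial cells. MTAP, next to them, encodes the enzyme that cleaves methylthioadenosine, a by-product of polyamine synthesis, and returns its parts to methionine and adenine. Cells without MTAP accumulate methylthioadenosine, which inhibits the arginine methyltransferase PRMT5. The 3 genes are often lost together in tumors, and MDA-MB-231 is widely described as a line that lacks CDKN2A. Copy number was not measured in this series, which holds RNA values.

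RNA levels came from Human Genome U133 Plus 2.0 arrays of Affymetrix, 3 for each line and 9 in all. B6TC cells were GFP+ and estrogen-independent, and were established from a tumor grown in mice without estrogen. The MDA-MB-231/GFP/Neo cells were ER negative, resistant to G418 and came from a transfected clone, and the ZR-75-1/GFP/puro cells were ER positive. All 3 lines thus carried GFP. The labels call the arrays technical replicates and name no separate cultures, so p-values here measure only the spread between arrays of a line. The values are on the log2 scale. A probe set was tested where it reached 6 on at least 3 of the 9 arrays, which 21095 probe sets did, and was called different at a limma adjusted p of 0.05 or less.

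The lines were checked against their defining genes before the members were read. Over 10 luminal markers, among them ESR1 and GATA3, the mean level was 6.31, 6.27 and 7.46 in B6TC, 6.22 to 6.45 in MDA-MB-231 cells and 11.3 to 11.4 in ZR-75-1. Over 8 mesenchymal markers, among them VIM and ANXA1, it was 11.4 on each B6TC array, 11.2 to 11.3 in MDA-MB-231 and 4.44 to 4.48 in ZR-75-1. None of 7 bone marrow cell markers, which were listed because the cells behind B6TC had grown in the marrow of mice, reached 6 on any array. B6TC array 3 stood apart from the other B6TC arrays in its luminal genes. A set of 226 probe sets had means of 8 or more in ZR-75-1 and under 6 in MDA-MB-231, with a difference of at least 3. Over this set the mean was 4.59, 4.55 and 5.09 on B6TC arrays 1, 2 and 3, and 9.15 to 9.17 in ZR-75-1. The 3′ probe set of ACTB exceeded its 5′ probe set by 0.67 on each B6TC array, by 0.28 to 0.34 in MDA-MB-231 and by 0.69 to 0.77 in ZR-75-1, and the part of this difference in the results below was not tested.

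The starts of the 3 genes are shown first, because CDKN2A has 2 of them and the probe sets cannot be tied to a start here. Each line gives the 250 bases before a RefSeq transcript start in GRCh38.p14, read 5′ to 3′ on the strand of the gene, with the GC box GGGCGG, or CCGCCC on the other strand, in capitals. The GC box is the motif of SP1, which is among the regulators examined further on.
CDKN2A downstream start (p16INK4a), chr9:21974858-21975107, minus strand: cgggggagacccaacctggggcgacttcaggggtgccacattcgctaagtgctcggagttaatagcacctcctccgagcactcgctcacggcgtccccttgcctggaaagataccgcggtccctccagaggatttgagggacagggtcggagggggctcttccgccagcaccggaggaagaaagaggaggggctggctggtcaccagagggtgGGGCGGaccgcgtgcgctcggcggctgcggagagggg
CDKN2A upstream start (ARF), chr9:21995325-21995574, minus strand: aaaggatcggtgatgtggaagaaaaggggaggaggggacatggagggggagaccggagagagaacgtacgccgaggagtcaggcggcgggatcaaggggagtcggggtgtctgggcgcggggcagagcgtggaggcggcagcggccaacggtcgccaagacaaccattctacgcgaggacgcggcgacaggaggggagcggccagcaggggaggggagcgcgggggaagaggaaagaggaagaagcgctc
CDKN2B, chr9:22009306-22009555, minus strand: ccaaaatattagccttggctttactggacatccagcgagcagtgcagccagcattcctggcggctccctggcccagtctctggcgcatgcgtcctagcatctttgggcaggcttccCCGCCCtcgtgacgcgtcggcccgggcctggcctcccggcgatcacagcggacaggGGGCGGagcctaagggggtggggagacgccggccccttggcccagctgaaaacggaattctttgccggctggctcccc
MTAP, chr9:21802386-21802635, plus strand: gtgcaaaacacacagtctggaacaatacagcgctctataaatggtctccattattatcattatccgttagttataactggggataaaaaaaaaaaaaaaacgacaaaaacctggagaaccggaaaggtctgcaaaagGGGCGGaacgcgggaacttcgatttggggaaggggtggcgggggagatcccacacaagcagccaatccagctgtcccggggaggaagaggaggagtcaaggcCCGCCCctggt
The window before the p16INK4a start held 1 GC box and 20 CpG dinucleotides, and that before the ARF start held 0 GC boxes and 24 CpG. The CDKN2B window held 2 GC boxes and 18 CpG, and the MTAP window 2 and 11. Of 35114 windows of this length before all RefSeq starts in the table, 42.6% held a GC box on either strand, and the median was 11 CpG per window. A match of letters is not a bound site, and neither binding nor methylation was measured in this series.

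CDKN2B and MTAP read below 6 at every probe set in all 3 lines, and CDKN2A read near 6 at 1 probe set and below it at the others. Of the 11 probe sets, 10 were below 6 on all 9 arrays, with values between 2.32 and 5.44, and only 1 probe set of CDKN2A passed the filter. That is 9.09% of the members, whereas 38.6% of all probe sets passed. On any 1 array, 65.3% to 66.2% of all probe sets were below 6. CDKN2A 209644_x_at (5.95 to 6.38) and MTAP 211364_at (5.07 to 5.44) lay above the array medians of 4.89 to 4.96. No member value exceeded 6.38, so these data do not show what the probe sets read when their transcripts are abundant. The plot of all member values by array shows the 3 lines side by side at each probe set.

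**Figure D1:**
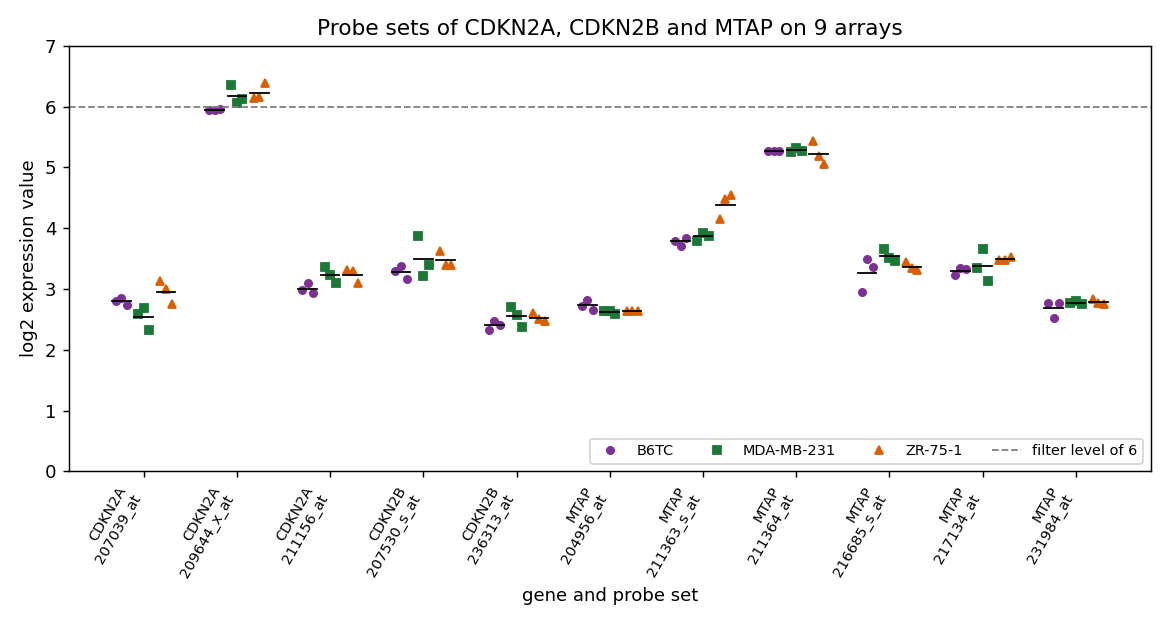
Log2 expression values of the 11 probe sets of CDKN2A, CDKN2B and MTAP on 3 arrays each of B6TC (circles), MDA-MB-231 (squares) and ZR-75-1 (triangles). Black bars are means of 3 arrays and the dashed line is the filter level of 6, which only CDKN2A 209644_x_at reached. At MTAP 211363_s_at the ZR-75-1 arrays, at 4.15 to 4.54, lie above all others.

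The only tested member, CDKN2A probe set 209644_x_at, had slightly lower values in B6TC than in either parent. Its log2 values were 5.95, 5.95 and 5.95 in B6TC, 6.35, 6.05 and 6.12 in MDA-MB-231 cells and 6.14, 6.17 and 6.38 in ZR-75-1. All 3 B6TC arrays were thus just under the filter level and all 6 parental arrays just over it, with no overlap between B6TC and either parent. The probe set thus passed the filter through its parental arrays alone, so a lower level in B6TC was part of how it came to be tested. The B6TC mean was 5.95 ± 0.0022 (SD, n = 3 arrays), against 6.18 ± 0.16 in MDA-MB-231 cells and 6.23 ± 0.13 in ZR-75-1. The suffix _x_at marks a probe set that may also bind transcripts of other genes. MDA-MB-231, described above as a line that lacks CDKN2A, read about as high here as ZR-75-1. Whether these values come from CDKN2A transcripts was not tested.

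B6TC was lower than ZR-75-1 at 209644_x_at by 0.28 on the log2 scale (difference -0.28, SE 0.085, limma adjusted p = 0.0115). With every probe set tested, and so without that selection, the adjusted p from limma was 0.0262 against ZR-75-1 and 0.0874 against MDA-MB-231. The call against ZR-75-1 was kept in all 16 alternative settings in which the probe set could be tested. B6TC was also lower than MDA-MB-231 (difference -0.22, SE 0.085, limma adjusted p = 0.0396), but this call was lost in 9 of the 16 settings. Without MDA-MB-231 array 1, the highest of its line, the difference was -0.14 (limma adjusted p = 0.135). Without any 1 of the B6TC arrays the adjusted p from limma was between 0.0778 and 0.084. With a replicate block the limma adjusted p was 0.0531, and with the arrays centred on their medians the difference was -0.19 (limma adjusted p = 0.0897). The parental lines were not called different (difference 0.05, ZR-75-1 minus MDA-MB-231, SE 0.085, limma adjusted p = 0.581). An exact permutation test of 3 arrays against 3 cannot give a two-sided p below 0.1, so it is not given for each probe set.

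**Figure D2:**
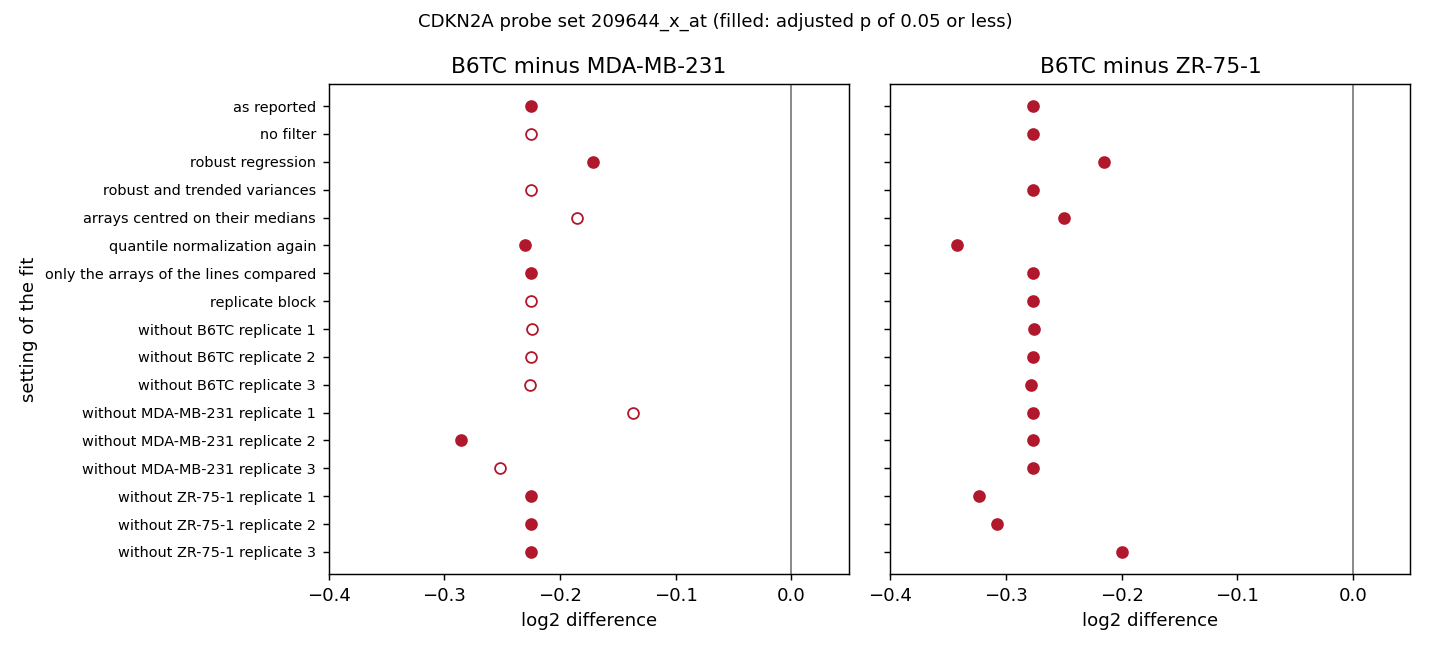
Log2 difference of CDKN2A probe set 209644_x_at (x axis) in B6TC minus MDA-MB-231 (left) and B6TC minus ZR-75-1 (right), as reported and in 16 other settings of the fit (y axis). Filled points have a limma adjusted p of 0.05 or less. All points lie below 0, all points on the right are filled, and 9 of the 16 other settings on the left are not.

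With 1 member tested, counts of calls say little about the 3 genes together. The tested member was called between B6TC and MDA-MB-231, as were 65.1% of the tested probe sets (33.9% higher and 31.3% lower in B6TC). It was also called between B6TC and ZR-75-1, as were 83.7% of the tested probe sets (43% higher and 40.6% lower in B6TC). It was not called between ZR-75-1 and MDA-MB-231, where the share was 83.7% of the tested probe sets (39.9% higher and 43.8% lower in ZR-75-1). Testing all 54613 probe sets without the filter called 0, 2 and 2 of the 11 members in the same order, against 30.7%, 48.1% and 46.5% of all probe sets.

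The other CDKN2A probe sets were further down. At 207039_at the values were 2.81, 2.86 and 2.74 in B6TC, 2.59, 2.69 and 2.32 in MDA-MB-231 cells and 3.12, 3.00 and 2.75 in ZR-75-1. Here ZR-75-1 was above MDA-MB-231 on every array and B6TC lay between them, overlapping ZR-75-1. Without the filter, the difference of ZR-75-1 over MDA-MB-231 was 0.42 (SE 0.11, limma adjusted p = 0.00885), that of B6TC over MDA-MB-231 was 0.27 (limma adjusted p = 0.0985) and that of B6TC from ZR-75-1 was -0.16 (limma adjusted p = 0.291). At 211156_at the means were 3.00 in B6TC, 3.23 in MDA-MB-231 cells and 3.24 in ZR-75-1, with overlap between every pair of lines and no call in any pair. The order of the lines was therefore not the same at the 3 CDKN2A probe sets. B6TC was lowest at 209644_x_at and 211156_at, and MDA-MB-231 was lowest at 207039_at.

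CDKN2B, the gene of p15INK4b, gave no call at either probe set. At 207530_s_at the values were 3.30, 3.38 and 3.16 in B6TC, 3.87, 3.21 and 3.39 in MDA-MB-231 cells and 3.63, 3.39 and 3.39 in ZR-75-1. B6TC lay under ZR-75-1 on every array (difference -0.19, SE 0.15, limma adjusted p = 0.316 without the filter) and overlapped MDA-MB-231, whose array 1 was the highest of the 9. At 236313_at the means were 2.40 in B6TC, 2.55 in MDA-MB-231 cells and 2.52 in ZR-75-1, and all lines overlapped.

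MTAP, the enzyme of methionine salvage, differed between the parental lines at 1 of its 6 probe sets, and there B6TC had the level of MDA-MB-231. At 211363_s_at the values were 3.80, 3.71 and 3.84 in B6TC, 3.80, 3.92 and 3.88 in MDA-MB-231 cells and 4.15, 4.47 and 4.54 in ZR-75-1. The ZR-75-1 arrays were above all others, and B6TC and MDA-MB-231 overlapped. Without the filter, ZR-75-1 exceeded MDA-MB-231 by 0.52 (SE 0.098, limma adjusted p = 0.000949) and B6TC was below ZR-75-1 (difference -0.60, SE 0.098, limma adjusted p = 0.00033). B6TC and MDA-MB-231 differed by -0.08 (SE 0.098, limma adjusted p = 0.584). All of these values were below 6, and the probe set was not among those tested with the filter.

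The remaining MTAP probe sets did not set ZR-75-1 apart. At 211364_at, the MTAP probe set with the highest values, the means were 5.28 in B6TC, 5.28 in MDA-MB-231 cells and 5.23 in ZR-75-1, and 4 of the 9 arrays held the same value of 5.28 to the last digit. At 204956_at the means were 2.73, 2.62 and 2.64 in the same order, with 1 identical value on 5 arrays, and B6TC lay above both parents on every array without passing the test (limma adjusted p without the filter 0.219 against MDA-MB-231 and 0.259 against ZR-75-1). The means were 3.27, 3.54 and 3.37 at 216685_s_at, 3.30, 3.38 and 3.49 at 217134_at and 2.69, 2.77 and 2.79 at 231984_at, and no pair of lines was called at any of them. Identical values on several arrays occurred at 7 of the 11 member probe sets.

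Antisense transcripts of the locus were below 6 on all arrays. CDKN2B-AS1, the long noncoding RNA also known as ANRIL, had means of 2.65 in B6TC, 2.56 in MDA-MB-231 cells and 2.79 in ZR-75-1. CDKN2A-AS1 had means of 4.29, 4.37 and 4.25 in the same order. Neither was called in any pair of lines without the filter, where the lowest limma adjusted p was 0.0518, for CDKN2B-AS1 in ZR-75-1 against MDA-MB-231.

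Genes beyond the locus were read in their order along 9p, from the RefSeq gene table of GRCh38.p14. Of 37 genes listed as neighbours, 34 had a probe set of their own symbol. In 32 of them, leaving out the antisense transcripts, there were 54 probe sets, of which 12 passed the filter and 42 were below 6 on all arrays. With 1 probe set per gene, the one with the highest mean, 9 genes were tested. Between B6TC and MDA-MB-231, 4 were higher, 0 lower and 5 not called, with a median difference of 0.11 beside 0.01 over all tested probe sets. Between B6TC and ZR-75-1, 4 were higher, 4 lower and 1 not called, with a median of -0.10 beside 0.01. Between ZR-75-1 and MDA-MB-231, 6 were higher, 2 lower and 1 not called, with a median of 0.28 beside -0.03. Of all tested probe sets, 33.9% were higher and 31.3% lower in the first of these comparisons. The shares were 43% and 40.6% in the second and 39.9% and 43.8% in the last.

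On the telomeric side, 2 genes were expressed in ZR-75-1 and near background in both MDA-MB-231 and B6TC. FOCAD encodes focadhesin, a focal adhesion protein. At FOCAD 218503_at the values were 3.90, 3.74 and 3.97 in B6TC, 3.90, 4.26 and 4.26 in MDA-MB-231 cells and 7.17, 7.18 and 6.88 in ZR-75-1. B6TC was below ZR-75-1 (difference -3.20, SE 0.11, limma adjusted p = 1.24e-09) and not called against MDA-MB-231 (difference -0.27, SE 0.11, limma adjusted p = 0.0628). Robust regression called the latter difference (-0.29, limma adjusted p = 0.0452). Probe set 218503_at passed the filter through its ZR-75-1 arrays alone, so a higher level there was part of its selection. With every probe set tested, the adjusted p from limma was 1.77e-09 against ZR-75-1 and 0.114 against MDA-MB-231. A second FOCAD probe set, 232875_at, was below 3 on every array. Without the filter, B6TC was called below MDA-MB-231 there (difference -0.28, limma adjusted p = 0.00496). It was also called below ZR-75-1 (difference -0.42, limma adjusted p = 0.000115).

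KLHL9, a substrate adaptor of a cullin ubiquitin ligase, lies within the interferon gene cluster between FOCAD and MTAP. At KLHL9 213233_s_at the values were 3.42, 3.59 and 3.91 in B6TC, 3.30, 3.53 and 3.76 in MDA-MB-231 cells and 8.16, 7.92 and 7.81 in ZR-75-1. ZR-75-1 stood far above the other lines, which overlapped. B6TC was below ZR-75-1 (difference -4.32, SE 0.15, limma adjusted p = 8.63e-10) and was not called against MDA-MB-231 (difference 0.11, SE 0.15, limma adjusted p = 0.534). This probe set, too, passed the filter through its ZR-75-1 arrays alone. With every probe set tested, the adjusted p from limma was 1.04e-09 against ZR-75-1 and 0.629 against MDA-MB-231. The second probe set 213117_at, below 6 on all arrays, had means of 3.12 in B6TC, 3.39 in MDA-MB-231 cells and 5.30 in ZR-75-1. B6TC array 3, which was higher in ZR-75-1 genes over the whole array, was also the highest B6TC array at FOCAD and KLHL9. Without it the B6TC difference from ZR-75-1 was -3.25 at FOCAD and -4.46 at KLHL9, and that from MDA-MB-231 at KLHL9 was -0.03 (limma adjusted p = 0.886).

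Between and around these genes most of the region was near background in all lines. The interferon genes with a probe set, HACD4 and MIR31HG were read by 18 probe sets with values between 2.14 and 5.37 on all arrays. The interferon alpha genes are a family of near-identical copies, so their probe sets may share transcripts. MLLT3, a chromatin reader at the telomeric end of the list, was expressed in all lines. Its means at 204917_s_at were 6.48 in B6TC, 6.40 in MDA-MB-231 cells and 6.73 in ZR-75-1, and ZR-75-1 was higher than MDA-MB-231 by 0.33 (SE 0.079, limma adjusted p = 0.00271).

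**Figure D3:**
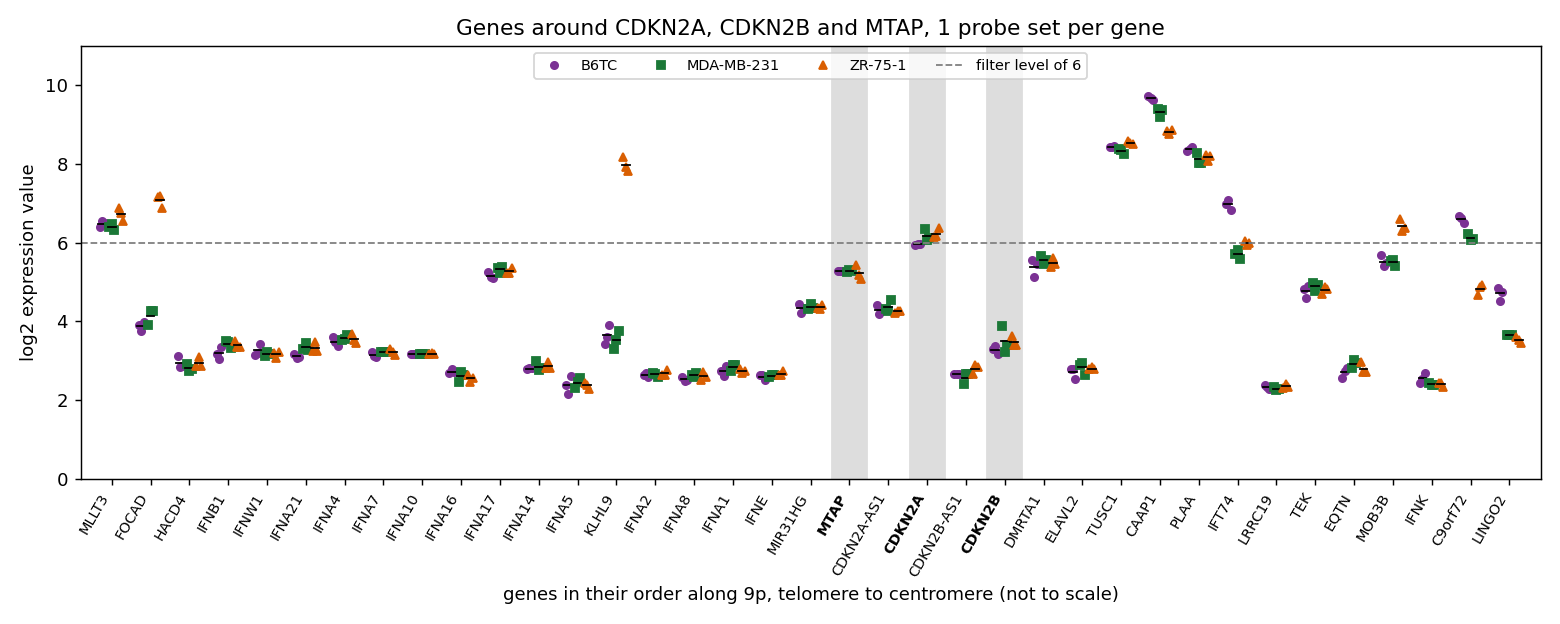
Log2 expression values (y axis) of the genes around CDKN2A, CDKN2B and MTAP in their order from telomere to centromere (x axis, not to scale), with 1 probe set per gene and 3 arrays each of B6TC (circles), MDA-MB-231 (squares) and ZR-75-1 (triangles). Black bars are means, the dashed line is the filter level of 6 and grey bands mark the 3 genes. FOCAD, KLHL9 and MOB3B are above 6 in ZR-75-1 only, and MLLT3, TUSC1, CAAP1 and PLAA are above it in all lines. Levels of different probe sets are not comparable.

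On the centromeric side the first gene, DMRTA1, was below 6 on all arrays, with means of 5.38 in B6TC, 5.56 in MDA-MB-231 cells and 5.48 in ZR-75-1. Further on, genes were expressed in all 3 lines. TUSC1, a tumor suppressor candidate, had means of 8.44 ± 0.012 in B6TC, 8.33 ± 0.077 in MDA-MB-231 cells and 8.54 ± 0.044 in ZR-75-1 (SD, n = 3 arrays). The B6TC level was not called different from either parent there (limma adjusted p = 0.0819 and 0.0939), although its arrays lay above those of MDA-MB-231 and below those of ZR-75-1. Robust regression called both differences (0.08 and -0.09, limma adjusted p = 0.00798 and 0.0032). CAAP1, an inhibitor of caspase activity, was highest in B6TC, with a mean of 9.68 beside 9.32 in MDA-MB-231 cells and 8.81 in ZR-75-1 at 219276_x_at, and was called in every pair. PLAA, a ubiquitin-binding protein, had means of 8.38, 8.11 and 8.17 in the same order at 209533_s_at. The call of PLAA against ZR-75-1 was lost without B6TC array 3 (difference 0.19, limma adjusted p = 0.0724), and the PLAA probe set 209532_at, below 6, ran the other way against MDA-MB-231 (5.27 in B6TC and 5.69 in MDA-MB-231).

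Other genes on this side differed between the parents, and at the tested probe sets of MOB3B and C9orf72 the B6TC level was closer to MDA-MB-231 than to ZR-75-1. MOB3B, a member of the MOB kinase activator family, had a mean level of 5.52 in B6TC, 5.50 in MDA-MB-231 cells and 6.42 in ZR-75-1 at 219265_at, and of 4.09, 4.30 and 6.43 at 226844_at. B6TC was below ZR-75-1 at both (differences -0.90 and -2.34, limma adjusted p = 6.39e-06 and 4.64e-08) and not called against MDA-MB-231 at either (limma adjusted p = 0.887 and 0.185). Both probe sets passed the filter through their ZR-75-1 arrays alone. With every probe set tested, the adjusted p from limma against ZR-75-1 was 1.48e-05 and 6.87e-08. The other MOB3B probe sets, below 6 on all arrays, differed from each other. Means at 229568_at were 3.43 in B6TC, 3.37 in MDA-MB-231 cells and 5.78 in ZR-75-1. Those at 1563521_at were 4.43, 4.96 and 4.63, closer to ZR-75-1. There B6TC was called below MDA-MB-231 without the filter (difference -0.52, limma adjusted p = 0.0148). C9orf72, a regulator of membrane traffic and autophagy, averaged 6.60 in B6TC, 6.12 in MDA-MB-231 cells and 4.82 in ZR-75-1 at 225919_s_at. B6TC was above ZR-75-1 by 1.77 (SE 0.079, limma adjusted p = 6.38e-09) and above MDA-MB-231 by 0.47 (SE 0.079, limma adjusted p = 0.000442). At the second tested C9orf72 probe set, 1553133_at, B6TC was not called against MDA-MB-231 (limma adjusted p = 0.318), except with robust regression (difference 0.20, limma adjusted p = 0.023). Both C9orf72 probe sets passed the filter through their B6TC and MDA-MB-231 arrays alone. The adjusted p from limma at 225919_s_at with every probe set tested was 1.48e-08 against ZR-75-1 and 0.00152 against MDA-MB-231.

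At IFT74, an intraflagellar transport protein, B6TC was above both parents. Its values at 219174_at were 6.99, 7.09 and 6.84 in B6TC, 5.72, 5.81 and 5.59 in MDA-MB-231 cells and 6.03, 5.94 and 5.99 in ZR-75-1. B6TC was higher than MDA-MB-231 by 1.27 (SE 0.075, limma adjusted p = 5.66e-07) and than ZR-75-1 by 0.99 (SE 0.075, limma adjusted p = 4.78e-07), and the second probe set of IFT74 had the same order. Probe set 219174_at passed the filter through its B6TC arrays and ZR-75-1 array 1. With every probe set tested, the adjusted p from limma was 2.01e-06 against MDA-MB-231 and 1.44e-06 against ZR-75-1. LINGO2, a transmembrane protein of neurons at the centromeric end of the list, was also highest in B6TC, with a mean of 4.71 beside 3.65 in MDA-MB-231 cells and 3.53 in ZR-75-1. It was below 6 on all arrays, and without the filter it was called against both parents (limma adjusted p = 7.73e-06 and 4.32e-07).

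The place of B6TC between the parents can be given on a scale with MDA-MB-231 at 0 and ZR-75-1 at 1. It is given where the parents were called different, for members without the filter and for neighbours only among those that passed it. Both members called between the parents without the filter were below 6, and they lay apart on this scale, with MTAP 211363_s_at at -0.156 and CDKN2A 207039_at at 0.634. Of 11 tested neighbour probe sets called between the parents, 6 lay within 0.25 of 0. These were MLLT3 204917_s_at at 0.241, FOCAD 218503_at at -0.0914, KLHL9 213233_s_at at 0.0247, MOB3B at 0.0181 (219265_at) and -0.101 (226844_at) and C9orf72 1553133_at at -0.0767. The others were TUSC1 227388_at at 0.526, C9orf72 225919_s_at at -0.366, CAAP1 at -0.708 (219276_x_at) and -0.756 (231995_at) and IFT74 219174_at at 4.53, where the parents differed by 0.28. Over the 226 probe sets high only in ZR-75-1 the median was 0.04, with 91.2% within 0.25 of 0 and a range from -0.378 to 0.882. Those were chosen for a parental difference of at least 3, and the neighbours were not. A small parental difference makes the scale unstable, so the shares of these sets are not comparable. The locus and its surroundings thus held probe sets at the MDA-MB-231 level, between the parents and outside their range. For the CDKN2A probe set that passed the filter no such place is given, because its parental means differed by less than their SDs.

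Genes that work with the 3 members were expressed, and several differed between the lines. Each gene is read here through the probe set whose mean was highest, and list counts stand beside 33.9% higher and 31.3% lower among all tested probe sets against MDA-MB-231, and 43% and 40.6% against ZR-75-1. Of the 11 tested genes of the INK4, CDK4/6 and RB list, 3 were higher, 6 lower and 2 not called in B6TC against MDA-MB-231 (median -0.14, beside 0.01 over all tested probe sets), and 5 were higher, 4 lower and 2 not called against ZR-75-1 (median 0.27). CDK6, a target of p16INK4a and p15INK4b, had a mean level of 9.07 in B6TC, 9.02 in MDA-MB-231 cells and 5.52 in ZR-75-1. B6TC exceeded ZR-75-1 by 3.55 at CDK6 (SE 0.042, limma adjusted p = 7.98e-13) and was not called against MDA-MB-231 (limma adjusted p = 0.339). CDKN2D, the INK4 inhibitor p19 encoded on another chromosome, averaged 7.13 in B6TC, 7.48 in MDA-MB-231 cells and 5.61 in ZR-75-1, and all pairs were called. CDK6 and CDKN2D passed the filter through their B6TC and MDA-MB-231 arrays alone. The adjusted p from limma against ZR-75-1 with every probe set tested was 3.73e-12 at CDK6 and 5.87e-09 at CDKN2D. Against MDA-MB-231 it was 0.563 and 0.00208.

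RB1 was expressed in all lines, at 9.41 in B6TC, 9.05 in MDA-MB-231 cells and 8.64 in ZR-75-1, and B6TC was above both (limma adjusted p = 0.000305 and 3.49e-07). RBL2, the RB relative p130, was at 8.56 in B6TC and 7.65 in MDA-MB-231 (difference 0.91, SE 0.052, limma adjusted p = 4.68e-07), the largest rise of this list against that parent. In ZR-75-1 it was at 8.62, and B6TC was not called against it (difference -0.06, limma adjusted p = 0.282). CCND1, the cyclin D1 partner of CDK4 and CDK6, was below both parents, at 9.99 in B6TC, 10.48 in MDA-MB-231 cells and 10.48 in ZR-75-1 (limma adjusted p = 8.26e-06 and 2.05e-06). E2F2, a transcription factor held by RB, had a mean level of 5.86 in B6TC, 6.35 in MDA-MB-231 cells and 8.77 in ZR-75-1, and all pairs were called. E2F2 passed the filter through its parental arrays alone. The adjusted p from limma for B6TC with every probe set tested was 0.000246 against MDA-MB-231 and 5.85e-11 against ZR-75-1.

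Of the 11 tested E2F target genes, which RB represses, 3 were higher, 7 lower and 1 not called in B6TC against MDA-MB-231 (median -0.20, beside 0.01 over all tested probe sets). Against ZR-75-1, 2 were higher, 9 lower and 0 not called (median -0.57, beside 0.01). Of all tested probe sets, 31.3% were lower in B6TC in the first comparison and 40.6% in the second, and the list itself was not tested. MCM5, a subunit of the replicative helicase, averaged 9.18 in B6TC, 9.86 in MDA-MB-231 cells and 10.63 in ZR-75-1, and B6TC was below both (differences -0.68 and -1.46, limma adjusted p = 1.42e-06 and 6.61e-10). TK1, thymidine kinase, fell by 0.59 against MDA-MB-231 (SE 0.046, limma adjusted p = 2.67e-06), and CCNE2, cyclin E2, fell by 1.01 against ZR-75-1 (SE 0.047, limma adjusted p = 8.63e-09).

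The CIP/KIP inhibitors, a second family of cyclin kinase inhibitors, were all tested. CDKN1C, the gene of p57, had a mean level of 7.58 in B6TC, 6.88 in MDA-MB-231 cells and 4.55 in ZR-75-1 and was higher in B6TC than in both parents (differences 0.71 and 3.03, limma adjusted p = 8.75e-05 and 3.95e-10). CDKN1C passed the filter through its B6TC and MDA-MB-231 arrays alone. The adjusted p from limma with every probe set tested was 0.000258 against MDA-MB-231 and 6.43e-10 against ZR-75-1. CDKN1B, the gene of p27, exceeded its MDA-MB-231 level in B6TC by 0.28 (limma adjusted p = 0.00949) and was lower than in ZR-75-1 (difference -1.39, limma adjusted p = 3.48e-08). CDKN1A, the gene of p21, averaged 8.25 in B6TC, 8.26 in MDA-MB-231 cells and 9.48 in ZR-75-1, which left B6TC below ZR-75-1 (difference -1.23, limma adjusted p = 3.79e-09) and not called against MDA-MB-231 (limma adjusted p = 0.891).

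On the ARF side, 4 genes were tested. Against MDA-MB-231, 0 were higher, 1 lower and 3 not called (median 0.02, beside 0.01 over all tested probe sets), and against ZR-75-1, 1 was higher, 3 lower and 0 not called (median -0.84). MDM2, the ubiquitin ligase that ARF inhibits, had a mean level of 7.81 in B6TC, 7.65 in MDA-MB-231 cells and 9.17 in ZR-75-1. B6TC was below ZR-75-1 at MDM2 (difference -1.36, SE 0.073, limma adjusted p = 2.81e-08) and was not called against MDA-MB-231 (limma adjusted p = 0.0753). MDM4, a relative and binding partner of MDM2, was lower in B6TC than in both parents (differences -0.93 and -1.61, limma adjusted p = 1.84e-07 and 2.26e-10).

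Of 6 tested regulators of the INK4 locus, 0 were higher, 3 lower and 3 not called in B6TC against MDA-MB-231 (median -0.24), and 4 were higher, 1 lower and 1 not called against ZR-75-1 (median 0.32). ETS1, an activator of p16INK4a that also stood in the mesenchymal marker list, averaged 10.87 in B6TC, 10.34 in MDA-MB-231 cells and 2.99 in ZR-75-1. ID1, which antagonizes ETS factors, was at 8.65, 9.07 and 5.22 in the same order, and all pairs were called. ETS1 and ID1 passed the filter through their B6TC and MDA-MB-231 arrays alone. The adjusted p from limma against ZR-75-1 with every probe set tested was 2.1e-10 at ETS1 and 5.34e-12 at ID1. Against MDA-MB-231 it was 0.0925 and 0.000237. EZH2, the Polycomb methyltransferase that silences the locus in cycling cells, was below its MDA-MB-231 level in B6TC (difference -0.40, SE 0.067, limma adjusted p = 0.000462) and not called against ZR-75-1 (limma adjusted p = 0.0688). SP1, whose GC box motif is marked in the sequences above, had a mean level of 8.04 in B6TC, 8.10 in MDA-MB-231 cells and 9.01 in ZR-75-1. B6TC was below ZR-75-1 at SP1 (difference -0.97, SE 0.059, limma adjusted p = 7.58e-08).

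Around MTAP, all 12 genes of methionine salvage and polyamine synthesis were tested. Against MDA-MB-231, 5 were higher, 3 lower and 4 not called in B6TC (median 0.06), and against ZR-75-1, 6 were higher, 3 lower and 3 not called (median 0.13). Among enzymes that act after MTAP in the salvage pathway, MRI1 exceeded its MDA-MB-231 level by 0.37, APIP by 0.44, ENOPH1 by 0.73 and ADI1 by 0.30 (limma adjusted p = 5.56e-05, 2.49e-05, 7.17e-06 and 0.000132). Against ZR-75-1, MRI1 was higher by 0.51, ADI1 was lower (difference -0.20), and APIP and ENOPH1 were not called (limma adjusted p = 1.54e-06, 0.00111, 0.275 and 0.517). These 4 were named in part after their values were seen, and no test was made of them as a group. GOT1, a transaminase of the same list, went the other way from these 4 against MDA-MB-231. It was lower in B6TC than in both parents (differences -0.75 and -0.58, limma adjusted p = 1.67e-06 and 2.6e-06). SAT1, which acetylates spermidine and spermine for export, averaged 10.23 in B6TC, 9.45 in MDA-MB-231 cells and 8.68 in ZR-75-1, and ODC1, which opens polyamine synthesis, was at 12.08 in B6TC and 10.69 in ZR-75-1.

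The methyltransferase complex linked to MTAP loss was expressed in all lines. Of its 5 genes, 2 were higher, 2 lower and 1 not called in B6TC against MDA-MB-231 (median -0.10), and 3 were higher, 2 lower and 0 not called against ZR-75-1 (median 0.19). PRMT5 itself had a mean level of 10.33 in B6TC, 10.74 in MDA-MB-231 cells and 10.49 in ZR-75-1, and B6TC was below MDA-MB-231 (difference -0.40, SE 0.051, limma adjusted p = 7.05e-05). RIOK1, a substrate adaptor of PRMT5, was higher in B6TC than in both parents (differences 0.36 and 0.83, limma adjusted p = 0.00041 and 3e-07).

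**Figure D4:**
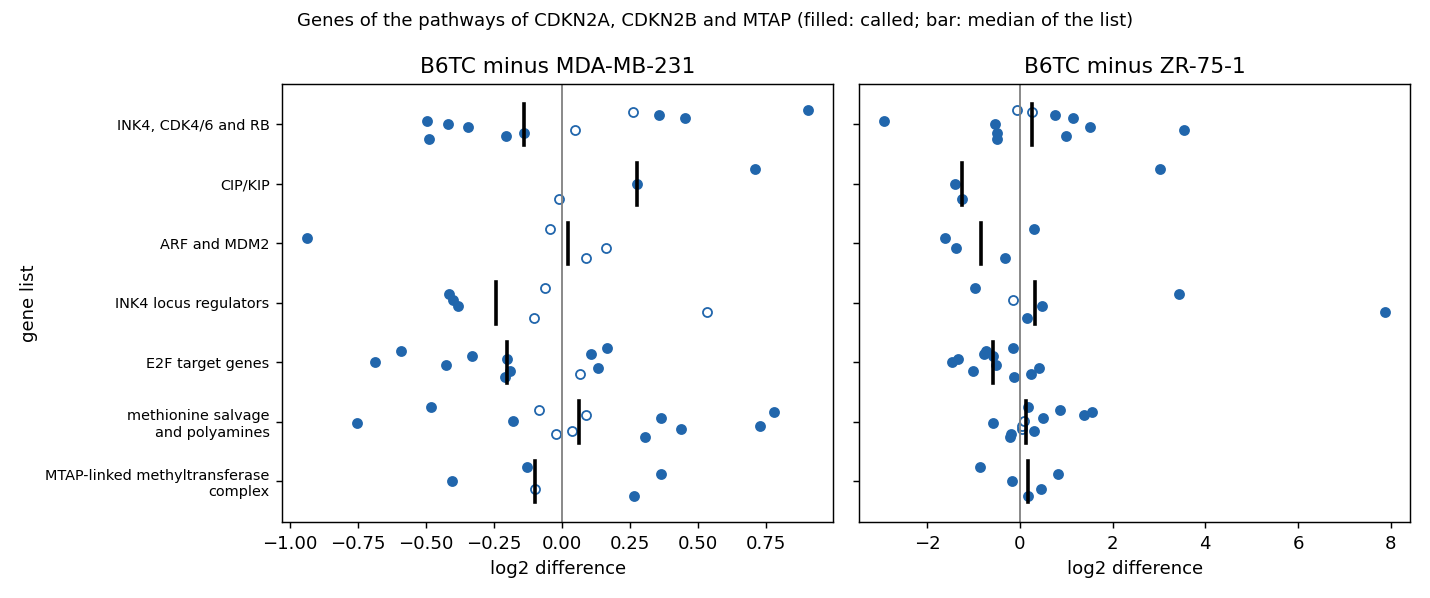
Log2 differences (x axis) of the tested genes of 7 lists (y axis) in B6TC minus MDA-MB-231 (left) and B6TC minus ZR-75-1 (right), with 1 probe set per gene and the genes of a list spread vertically. The x axes differ in scale. Filled points were called at a limma adjusted p of 0.05 or less and black bars are list medians, which lie between -0.24 and 0.28 on the left and between -1.23 and 0.32 on the right. Both panels share the B6TC arrays.

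Few arrays and small differences left the likeness of other genes to the members weakly defined. By the root mean square difference of centred log2 profiles over the 9 arrays, the genes most like CDKN2A 209644_x_at were STX5 (0.0589), DEAF1, SNRPB2, CCDC88B and KLF10 (0.0689). Those most like CDKN2B 207530_s_at were S1PR2 (0.1211), HMX1, ZNF683, ACVR2B and OTUD5 (0.1257), and those most like MTAP 211364_at were FAN1 (0.0544), LYL1, EXPH5, CSRNP2 and NKX6-3 (0.067). Of 10697 genes compared, 2011 lay within 0.2 of the CDKN2A profile, 705 within 0.2 of that of CDKN2B and 2331 within 0.2 of that of MTAP, and all 3 profiles were nearly flat.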

How the data were processed

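Total RNA of the 3 lines was labeled and hybridized to Human Genome U133 Plus 2.0 arrays of Affymetrix, in 3 technical replicates each. The deposited table holds log2 values. The submitters' processing notes name Affymetrix Expression Console and RMA for the step by which the authors made them, whereas the methods describe GC-RMA. The versions and the genome build are not given in the sources used here. RMA and GC-RMA treat weak signals differently, and the values could not be remade here, so small differences below 6 depend on a step that was not repeated.

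After 62 control probe sets were left out, 41091 probe sets carried 1 gene symbol, 1801 several and 11721 none. Older symbols were replaced through gene identifiers with those of RefSeq (GRCh38.p14), where 54 identifiers had no match. limma 3.58.1 in R 4.3.3 was fitted to all 9 arrays with 1 mean per line (6 residual and 3.68 prior degrees of freedom), after tests on simulated data. P-values were adjusted by Benjamini and Hochberg over the 21095 tested probe sets of each comparison. The median SD between arrays, pooled over lines, was 0.0788, and the number of arrays limits the precision.

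Samples were grouped by the cell line in their labels. The genes named were all members, the listed neighbours, the 5 genes most like each member, and in each pathway list mainly the 4 genes with the largest absolute difference in a comparison. RB1, CCND1, EZH2, MDM2, MRI1, APIP and ADI1 were also named for their roles, in part after their values were seen. The members and the lists were chosen with earlier results of these data known. Replicate numbers did not pair the arrays. Correlations of same-numbered arrays in their deviations from the line means were -0.102 to 0.176. Alternative fits used every probe set, a filter that also asked for variation, robust regression, variances that were robust and trended, median-centred arrays, a further quantile normalization, the arrays of 2 lines at a time, single-transcript probe sets, gene means, a replicate block, and all arrays but 1 in turn.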

Additional observations from a re-analysis of the deposited data

How the results depend on the processing

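The member called in B6TC against MDA-MB-231, CDKN2A 209644_x_at, was not called without the filter, with robust and trended variances, with arrays centred on their medians or with a replicate block, each of which left 0 members called, and leaving out 1 array left 0 to 1. Against ZR-75-1, 2 members were called without the filter (209644_x_at and MTAP 211363_s_at). Between ZR-75-1 and MDA-MB-231, 2 were called without the filter (CDKN2A 207039_at and MTAP 211363_s_at) and 1 with robust regression (209644_x_at, difference 0.04, limma adjusted p = 0.0402). Without ZR-75-1 array 3 or MDA-MB-231 array 2 the latter difference was -0.03 or -0.01. No member could be tested where the filter also asked for variation, where probe sets of several transcripts were left out or where probe sets were averaged by gene, because none then passed.

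Counts over all probe sets fell by more than 1.5 times with fewer probe sets tested. In the order B6TC minus MDA-MB-231, B6TC minus ZR-75-1 and ZR-75-1 minus MDA-MB-231, 6758, 9519 and 9571 were called with the filter on variation as well, 7268, 9570 and 9545 without probe sets of several transcripts, and 5767, 7565 and 7558 with gene means. With the replicate block, which the numbers do not justify, 13489, 17508 and 17580 were called, against 13742, 17650 and 17665. Of the values of single probe sets, only the luminal marker TFF1 in B6TC minus MDA-MB-231 turned its sign with a call. Its difference of 0.52 (limma adjusted p = 0.631) became -0.60 with robust regression (limma adjusted p = 0.00195), and leaving out 1 array moved it between -0.83 (without B6TC array 3) and 1.22. Depth has no counterpart on these arrays: at levels below 6, signal over background limits every comparison of the 3 genes, and a difference there may understate a change in RNA.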
